A study of Homo sapiens with 26 samples.

Results

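The nuclear genes of respiratory complex I were followed through ribosome footprint libraries of 3 human cell lines. They were taken by gene symbol: NDUFA, NDUFB, NDUFC, NDUFS, NDUFV or NDUFAB followed by a number, with the NDUFAF assembly factors left out. The rule gave 39 genes, each on 1 of the 19478 transcripts listed in every count table. Of these, 37 code for subunits of complex I as the enzyme is described today. The remaining 2 are NDUFA4, which RefSeq now names COXFA4 and places with complex IV, and its paralog NDUFA4L2 (COXFA4L2).

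Complex I is the NADH:ubiquinone oxidoreductase of the inner mitochondrial membrane. It passes electrons from NADH through a flavin and a chain of iron-sulfur clusters to ubiquinone and moves protons out of the matrix. The core catalytic subunits of its matrix arm and all accessory subunits are made from nuclear mRNAs on cytosolic ribosomes and imported, whereas the membrane core (MT-ND1 to MT-ND6 and MT-ND4L) is made inside the organelle. By role, the genes here comprise 7 core catalytic subunits, 9 accessory subunits of the matrix arm, 9 of the proximal and 11 of the distal membrane arm, the acyl carrier protein NDUFAB1, and the 2 reassigned genes.

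The study sequenced 26 libraries that differed in how ribosomal RNA was removed, and its title asks whether removal by nuclease biases footprint counts. HEK293T, a human embryonic kidney line, gave 8 libraries from fragments of 15 to 35 nt, 2 each left undepleted or treated with Ribo-Zero Gold, RiboCop or NEBNext. K562, a chronic myeloid leukaemia line, gave a size-selection table of 4 libraries, NEBNext and undepleted at 20 to 34 and at 20 to 60 nt. It also gave a kit table of 12 libraries at 20 to 34 nt: pairs of libraries that were undepleted or treated with FastSelect or riboPools (the latter eluted either as usual or cold), and 1 each of Ribo-Zero Plus alone, with oligos, with formaldehyde and with both. HEK293FT, another embryonic kidney line, gave 1 undepleted library and 1 depleted with custom oligos, at 15 to 35 nt. Both size-selection libraries titled undepleted also carry a label naming NEBNext, and they were grouped by title. Nothing says that replicates came from separate cultures, so p-values measure only the spread between these libraries.

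Library totals ran from 46858 to 5795774 counts on coding sequences. The K562 markers fixed as a list (8 globin and erythroid genes) summed to between 10870 and 11630 CPM (counts scaled to the library total) in the 4 undepleted K562 libraries, against 0 and 6.52 CPM in undepleted HEK293T and 0 CPM in undepleted HEK293FT. The 4 neuronal and kidney markers of the HEK293 lines summed to 375 and 482 CPM in undepleted HEK293T and 190 CPM in HEK293FT, against at most 1.76 CPM in undepleted K562. The lines come from separate experiments with their own tables, so cell line, experiment and size range cannot be told apart in any comparison between lines.

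Base composition recurs in the results, and 2 short coding sequences of unlike GC share are printed here. NDUFA3 and NDUFA4 are printed because each was the member that passed the test with NEBNext in 1 of the lines. They are the GENCODE 29 coding sequences of the counted transcripts (GRCh38), without the stop codon, read 5′ to 3′ on the coding strand. Capitals mark every run of at least 6 G or C bases. NDUFA3 lies at chr19:54102837-54107568 on the plus strand in 4 exons, and its 252 coding bases are 61.5% GC with 4 such runs. NDUFA4 lies at chr7:10931951-10940256 on the minus strand in 4 exons, and its 243 coding bases are 46.9% GC with 0 runs.
NDUFA3: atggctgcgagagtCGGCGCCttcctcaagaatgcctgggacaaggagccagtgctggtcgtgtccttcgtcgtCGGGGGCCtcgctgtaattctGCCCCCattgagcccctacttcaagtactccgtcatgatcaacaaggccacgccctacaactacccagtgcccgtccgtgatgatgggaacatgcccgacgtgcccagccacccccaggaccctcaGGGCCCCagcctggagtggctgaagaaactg
NDUFA4: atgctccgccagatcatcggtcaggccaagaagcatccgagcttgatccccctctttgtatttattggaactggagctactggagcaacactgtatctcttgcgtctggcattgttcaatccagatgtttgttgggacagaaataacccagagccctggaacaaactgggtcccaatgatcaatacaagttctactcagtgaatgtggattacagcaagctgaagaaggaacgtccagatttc

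As a class, the members are short: the median coding length was 427.5 nt over the 38 with a length, against 1274 nt over all coding sequences. The shortest was NDUFA1 at 210 nt and the longest NDUFS1 at 2181 nt. Their median GC share of 53.2% lay near that of all coding sequences (52.9%), and ranged from 42.5% in NDUFA5 to 66.2% in NDUFS7. RefSeq lists pseudogenes for 19 members, 12 each for NDUFA5 and NDUFB4. How reads shared with such copies were counted is not given in the sources used here, so the levels of those genes are uncertain to that extent. The counted NDUFA6 transcript had no match in the annotation and carries no length.

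The members together took nearly the same share of coding counts in every library, whatever the line or kit. The share had a mean of 0.651% ± 0.018 (SD, n = 26 libraries) and ran from 0.602% to 0.679%. In undepleted HEK293T it was 0.669% and 0.679%, in undepleted HEK293FT 0.665%, and in the 4 undepleted K562 libraries between 0.602% and 0.652%. The lowest value came from the smallest library, K562 undepleted at 20 to 60 nt, where an exact 95% binomial interval of 0.534% to 0.676% covers counting error only. Over the 11 libraries of at least 500000 counts the mean was 0.655% ± 0.007 (SD).

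**Figure D1:**
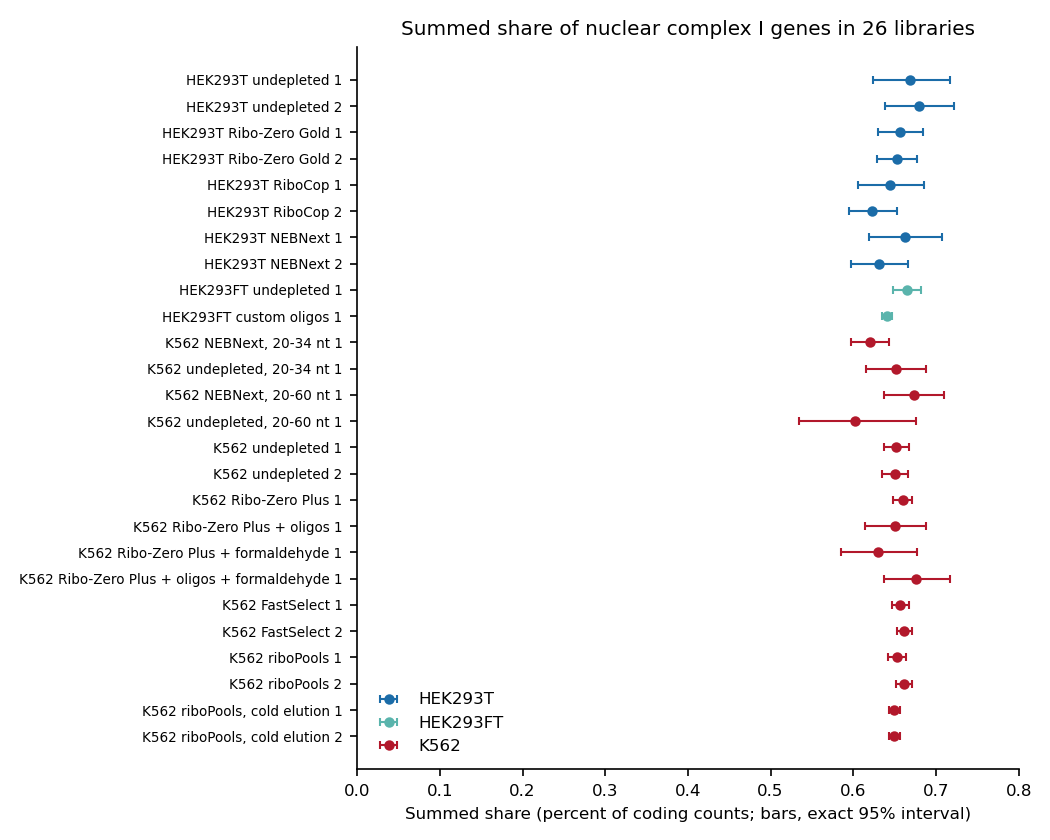
Summed share of the 39 nuclear complex I genes in each of 26 libraries, as a percent of coding counts on a linear axis from 0, with exact 95% binomial intervals that cover counting error only. All points lie between 0.602% and 0.679%, and the wide intervals belong to the libraries with few counts.

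Within that steady sum the parts of the enzyme were unequally weighted between lines. The 7 core catalytic genes summed to 1250 and 1264 CPM in undepleted HEK293T, 1447 CPM in undepleted HEK293FT and 1477 to 1748 CPM in the 4 undepleted K562 libraries. Over all kits, the 16 K562 libraries (1477 to 1748 CPM) lay above the 10 HEK293T and HEK293FT libraries (1149 to 1447 CPM) with no overlap. Without NDUFV2 the sums overlapped, at 1057 to 1338 CPM in K562 and 1005 to 1282 CPM in the HEK libraries.

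The 11 distal membrane arm genes went the other way. They summed to 2200 and 2372 CPM in undepleted HEK293T, 2305 CPM in undepleted HEK293FT and 1515 to 1898 CPM in undepleted K562. Over all libraries the ranges were 2019 to 2372 CPM in the HEK lines and 1515 to 2041 CPM in K562, and the K562 library at 2041 CPM was Ribo-Zero Plus with oligos and formaldehyde. Matrix arm accessory genes overlapped between lines (1008 to 1152 CPM in the HEK lines, 915.6 to 1353 CPM in K562), as did proximal membrane arm genes (1200 to 1766 and 1036 to 1491 CPM). These sums carry no test of their own.

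**Figure D2:**
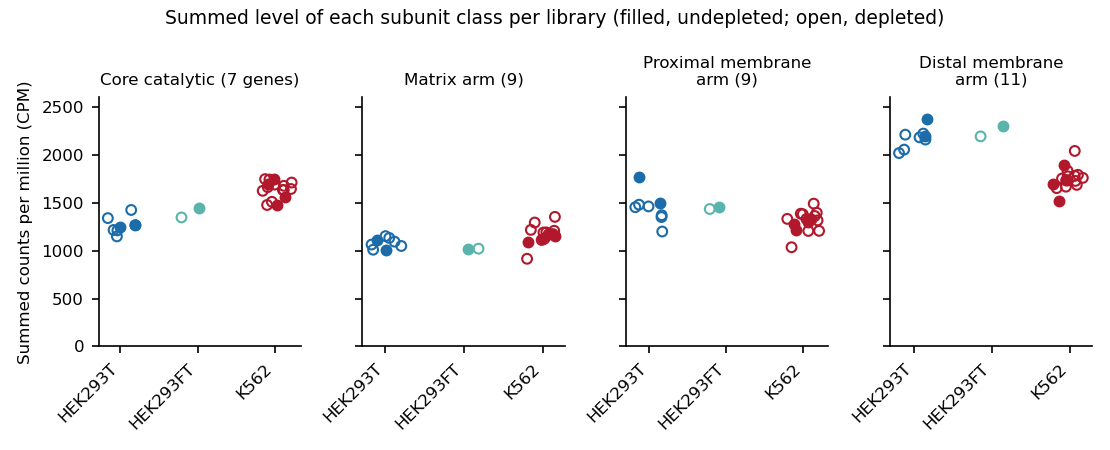
Summed CPM of each subunit class in every library, by cell line, with filled points for undepleted and open points for depleted libraries. The core catalytic sums of K562 (1477 to 1748 CPM) lie above those of both HEK lines, and its distal membrane arm sums lie below them except in 1 library.

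Gene by gene, K562 and HEK293T differed in both directions. Of 38 members tested on the 7 undepleted libraries, 7 were higher and 8 lower in K562 at an edgeR adjusted p under 0.05. That is 39.5% of the members against 44.2% of all genes tested, so the share called was close to the background. The median log2 difference of the members was 0.04, against -0.01 over all 5551 genes tested. With total counts in place of TMM scaling the median of all genes moved to -0.16, and the members split into 4 higher and 11 lower, so directions are relative to the scaling. DESeq2 called 8 members, 2 higher and 6 lower, or 21.1% against 27.4% of genes. Library values below are in CPM and in the order HEK293T 1 and 2, HEK293FT, K562 size selection at 20 to 34 and 20 to 60 nt, and the 2 K562 libraries of the kit table.

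Among the core subunits, NDUFV2, which holds an iron-sulfur cluster beside the flavin site, stood out. It measured 99.98 and 143 CPM in HEK293T, 164 CPM in HEK293FT, and 420.5, 320.1, 397 and 411 CPM in K562. Every K562 library was above every HEK library, and the fitted level was 3.50-fold higher in K562 than in HEK293T (log2 1.81 ± 0.22 SE, edgeR adjusted p = 4.22e-13). NDUFV1, its partner that binds NADH and the flavin, measured 233 and 156 CPM, then 238 CPM, then 273, 256, 258 and 261 CPM. Its K562 values also lay above all HEK values, by a smaller log2 0.56 ± 0.21 SE (edgeR adjusted p = 0.0188).

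NDUFS7, which carries the terminal cluster that hands electrons to ubiquinone, measured 66.7 and 163 CPM, then 183 CPM, then 99.9, 128, 209 and 193 CPM. Both groups were wide and overlapped, and the call (log2 0.77 ± 0.26 SE, edgeR adjusted p = 0.01125) came from the kit table: with the size-selection table alone for K562 the log2 difference was -0.11. NDUFS8, another iron-sulfur protein, measured 91.7 and 150 CPM, then 246.5 CPM, then 163, 107, 164 and 176 CPM, and did not pass (log2 0.54, edgeR adjusted p = 0.0726). NDUFS1 and NDUFS3 did not pass either, at log2 -0.11 and 0.35. The undepleted libraries held 168 to 292 CPM of NDUFS1 and 131 to 299 CPM of NDUFS3, and K562 and HEK values overlapped for each.

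Of the 9 matrix arm accessory genes, 1 rose and 1 fell. NDUFA5 measured 117 and 78.2 CPM, then 64.4 CPM, then 158, 256, 198 and 217 CPM. No K562 value overlapped a HEK value, and the fitted ratio was 2.31-fold (log2 1.21 ± 0.27 SE, edgeR adjusted p = 6.59e-05). NDUFA9, which binds NADPH and sits near the ubiquinone site, measured 242 and 228 CPM, then 164 CPM, then 94.6, 171, 135 and 122 CPM. It fell by 0.77 on the log2 scale (SE 0.22, edgeR adjusted p = 0.00209), with 1 K562 library above the HEK293FT level. The other 7, among them NDUFS6 and NDUFA12 at log2 0.46 each, did not pass.

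In the proximal membrane arm 3 genes fell and 0 rose. NDUFA11, a membrane subunit at the junction of the arms, measured 225 and 163 CPM, then 192 CPM, then 68.3, 85.4, 84.5 and 78.5 CPM. The groups did not overlap, and the K562 level was 2.18-fold lower (log2 -1.12 ± 0.25 SE, edgeR adjusted p = 7.555e-05). NDUFA3, a small membrane subunit, measured 133 and 84.7 CPM, then 103 CPM, then 26.3, 0, 41.4 and 56.2 CPM. Its K562 values were again all lower (log2 -1.10 ± 0.34 SE, edgeR adjusted p = 0.00488), though the 0 rests on a library where 3 counts are worth 64 CPM. NDUFC1 measured 117 and 91.2 CPM, then 73.3 CPM, then 52.6, 85.4, 51.1 and 52.3 CPM, with overlap at HEK293FT (log2 -0.85 ± 0.33 SE, edgeR adjusted p = 0.0264). NDUFC1 kept that call in 5 of 16 alternative settings and lost it in 11, with adjusted p up to 0.368 in edgeR. NDUFS5, which lies on the intermembrane-space side, measured 425 and 404 CPM, then 291 CPM, then 405, 405.5, 383 and 419 CPM, and did not pass (log2 0.07).

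Distal membrane arm genes gave 4 falls and 2 rises. NDUFB10 measured 342 and 280.2 CPM, then 284 CPM, then 94.6, 171, 127 and 118 CPM. All K562 libraries were lower than all HEK libraries, by 2.34-fold in the fit against HEK293T (log2 -1.23 ± 0.20 SE, edgeR adjusted p = 9.48e-08). NDUFB1 (142 and 143 CPM, then 117 CPM, then 73.6, 64.0, 55.5 and 71.7 CPM) did not overlap either, at log2 -1.04 ± 0.28 SE (edgeR adjusted p = 0.00137). NDUFB8, a transmembrane subunit, measured 242 and 339 CPM, then 301 CPM, then 137, 192, 173 and 158 CPM, again without overlap (log2 -0.74 ± 0.20 SE, edgeR adjusted p = 0.000905). NDUFB6 measured 258 and 202 CPM, then 223 CPM, then 142, 85.4, 138 and 130 CPM, all K562 values being lower (log2 -0.65, edgeR adjusted p = 0.0109).

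Against this direction, NDUFB5 measured 83.3 and 137 CPM, then 98.8 CPM, then 294, 128, 193 and 175 CPM. It was 1.84-fold higher in K562 (log2 0.88 ± 0.26 SE, edgeR adjusted p = 0.00353), with 1 K562 library inside the HEK range. NDUFB9, which docks an acyl carrier protein, measured 317 and 313 CPM, then 273 CPM, then 410, 256, 409 and 386 CPM. With 1 K562 library below the HEK values, it rose by log2 0.44 ± 0.17 SE (edgeR adjusted p = 0.0226). NDUFAB1, that acyl carrier protein itself, measured 242 and 248 CPM, then 222 CPM, then 368, 405.5, 320 and 295 CPM. Its K562 values were all above the HEK values, at log2 0.48 ± 0.19 SE (edgeR adjusted p = 0.0286).

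NDUFA4, the reassigned complex IV component, measured 225 and 293 CPM, then 204 CPM, then 299.6, 235, 313.5 and 315 CPM, and did not pass (log2 0.35, edgeR adjusted p = 0.105). NDUFA4L2 had 0 counts in all 7 undepleted libraries. In undepleted HEK293FT, 3 counts are worth 3.33 CPM, which limits what could have been seen. Its highest count anywhere was 5, in the HEK293FT library depleted with custom oligos.

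**Figure D3:**
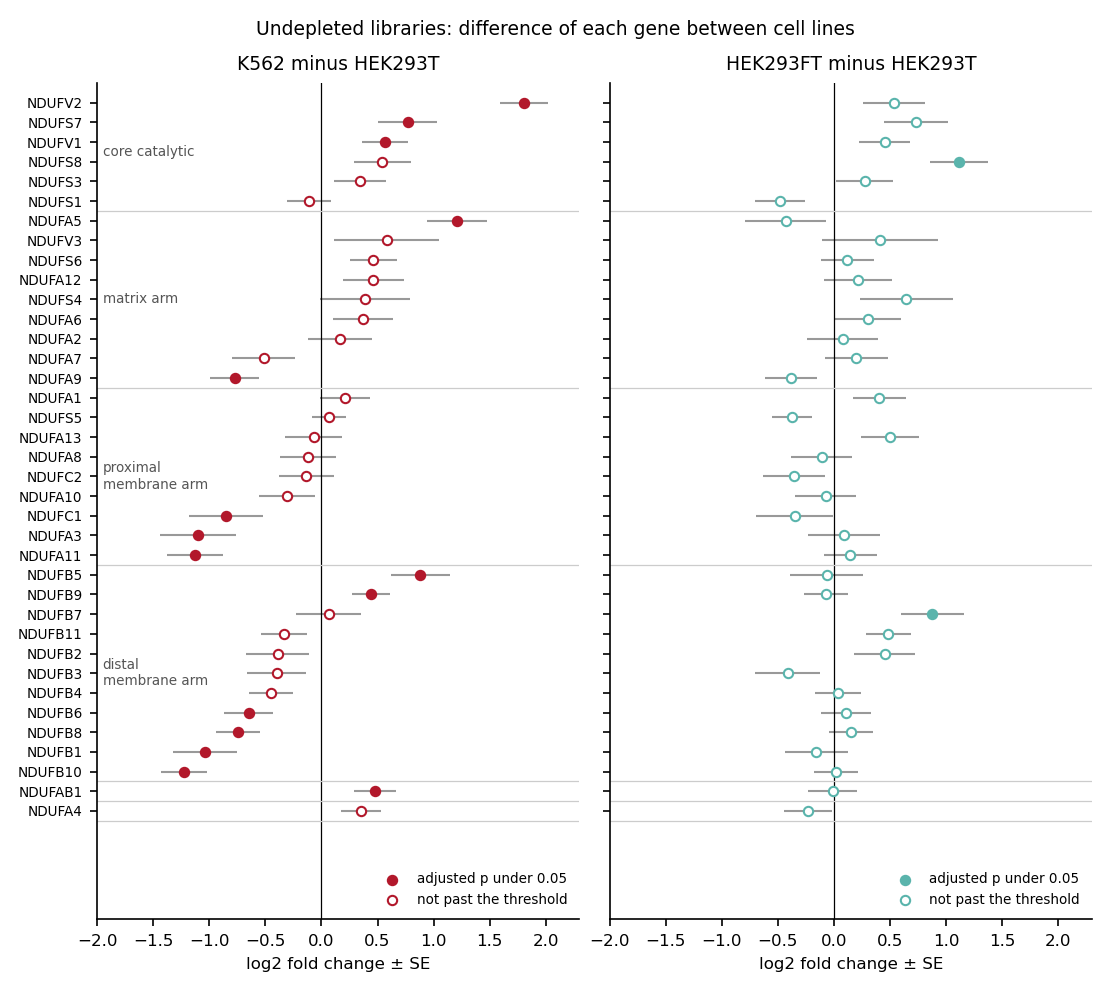
Log2 fold change with its standard error for 37 of the nuclear complex I genes on undepleted libraries, K562 minus HEK293T on the left and HEK293FT minus HEK293T on the right, grouped by role. Filled points passed an edgeR adjusted p of 0.05: 15 genes on the left, led by NDUFV2 (1.81) and NDUFB10 (-1.23), and 2 on the right, NDUFS8 (1.12) and NDUFB7 (0.88).

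All 15 calls kept their sign when each library was left out in turn, but the number called fell to 7 without HEK293T undepleted 1 (18.4% of members, 25.6% of genes) and to 9 without HEK293T undepleted 2 (23.7% of members, 21.9% of genes). Without the size-selection table, whose labels conflict, 17 members were called (11 higher, 6 lower), 13 of them among the 15, which is 44.7% of members against 35.4% of genes. Libraries of other kits gave a comparison that shares no library with this one, but comes from the same HEK293T and K562 kit experiments. HEK293T RiboCop against K562 riboPools had the same sign for all 15 and called 14 of them, among 23 called members (60.5% of members, 45.7% of genes). Its kits also differ between the lines, so it is not an independent repeat. The calls held unequally: over 17 alternative settings NDUFV2, NDUFA5 and NDUFB10 kept theirs in all. NDUFB6, NDUFAB1 and NDUFB9 each lost theirs in 7 and NDUFV1 in 5, while NDUFS7 lost its call in 4 and reversed in 1. By levels alone, 14 of the 39 members (6 above, 8 below) did not overlap between the 4 undepleted K562 and the 3 undepleted HEK libraries, against 40.3% of all genes. Over all 26 libraries 4 members did not overlap, against 12.6% of all genes: NDUFV2 and NDUFA5 were above in K562, and NDUFB6 and NDUFB8 below.

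HEK293FT and HEK293T were much closer. Against a background of 6.70% of genes called, 2 of 38 members passed, both higher in HEK293FT, whose only undepleted library was assumed to vary like the others. NDUFS8 was 2.17-fold higher (log2 1.12 ± 0.26 SE, edgeR adjusted p = 0.000996), from the 246.5 CPM in HEK293FT against 91.7 and 150 CPM given above. NDUFB7, an intermembrane-space subunit with paired cysteine motifs, measured 75.0 and 137 CPM in HEK293T and 184 CPM in HEK293FT (log2 0.88 ± 0.28 SE, edgeR adjusted p = 0.0355). Both calls rested on HEK293T undepleted 1, the lower of the pair for both genes: without it neither passed (edgeR adjusted p = 0.142 for NDUFS8 and 0.528 for NDUFB7). The call of NDUFB7 was also lost without HEK293T undepleted 2 (edgeR adjusted p = 0.0524) or the first undepleted library of the K562 kit table (0.0528). Of the members, 86.8% lay within a log2 difference of 0.5, against 65.1% of all genes. At a minimum mean of 50 counts the gap was smaller, with 87.9% of 33 members against 76.4% of genes.

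K562 against HEK293FT rested on 1 HEK293FT library, assumed to vary like the others. The comparison used the same K562 libraries, so its values repeat part of the one above. It called 23 of 38 members (9 higher, 14 lower in K562), or 60.5% against a background of 60.3%. NDUFA5 led with a 3.12-fold higher level in K562 (log2 1.64 ± 0.19 SE, edgeR adjusted p = 3.25e-14), followed by NDUFV2 at 2.42-fold. NDUFA11 and NDUFB10 were the lowest, at log2 -1.27 and -1.25. With DESeq2 a smaller share of members passed, and a smaller share of all genes. By role, 8 of 11 distal membrane arm genes fell, with a median log2 of -0.81 against -0.03 over all genes, while 2 of 7 core catalytic genes rose (NDUFV2, NDUFS1) and 1 fell (NDUFS8).

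Levels were also compared per length. Density, the CPM per kilobase of coding sequence averaged over undepleted libraries, had a median over 36 subunits of 365 in HEK293T, 357 in HEK293FT and 263 in K562. Genes averaging 10 counts or more numbered 2797, 8070 and 6476 in the same lines, with median densities of 112, 31.5 and 42.8, so the set of genes changes with depth and a rank within it is not comparable between lines. The upper decile of subunit density was 4.22, 4.34 and 5.42 times the lower decile, against 20.6, 30.5 and 29.5 times over those sets. Densities of the subunits in HEK293T and HEK293FT correlated across genes at r = 0.89 (n = 36), and those in K562 with either at r = 0.67. These points share their libraries, and genes are not independent replicates.

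The order by density was similar at the top and bottom. NDUFS5 had 1303 ± 46.5 CPM per kb in HEK293T (SD, n = 2), 915 in HEK293FT and 1267 ± 46.3 in K562 (SD, n = 4). NDUFA1, a short membrane subunit, had 878 ± 119, 1073 and 1044 ± 216, and NDUFA4 had 1066 ± 199, 841 and 1196 ± 156. Within each line these 3 genes held the first 3 ranks. Both HEK293T values of NDUFS5 were above both of NDUFA4, which overlapped NDUFA1, and the K562 values of all 3 overlapped. Core subunits stood lower, with medians of 180, 220 and 242 CPM per kb in the 3 lines, against 520, 509 and 322 for the distal membrane arm. The classes also differ in coding length, 630 to 2181 nt in the core and 294 to 567 nt in the distal arm. The part of length in these densities was not tested.

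At the lower end, NDUFS1, the longest subunit, had 119 ± 20.6 CPM per kb in HEK293T, 76.9 in HEK293FT and 91.6 ± 13.3 in K562. NDUFS4, needed for a stable matrix arm, had 98.99 ± 17.1, 140 and 120 ± 37.3. NDUFA10 had 145 ± 5.6, 125 and 122 ± 39.7, and NDUFA9 had 208 ± 8.48, 145 and 115 ± 27.9. NDUFV3, beside the flavin subunits, had 103 ± 110 in HEK293T, a spread that comes from 8.33 CPM in library 1 and 58.7 CPM in library 2. In rank, NDUFV2 moved from 32 in HEK293T and 28 in HEK293FT to 8 in K562, and NDUFA5 from 23 and 30 to 7. NDUFB10 moved from 5 and 7 to 23.

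Base composition went with the difference between the HEK lines. Across 37 members, the log2 difference of HEK293FT against HEK293T rose with coding GC share (Pearson r = 0.59, Spearman rho = 0.55). Over 5387 genes it rose too, at r = 0.19 and rho = 0.24. Over genes averaging 50 counts or more it was r = 0.23 and rho = 0.33. NDUFB7 and NDUFS8, the called genes, are 65.9% and 63.0% GC, and NDUFA5, which was among the lowest (log2 -0.43, not called), is 42.5%. For K562 against HEK293FT the relation was inverse (r = -0.55 and rho = -0.52 over 37 members), and the HEK293FT library enters both comparisons. Over all genes it was r = -0.03 and rho = -0.10, with rho = -0.15 among genes averaging 50 counts or more. For K562 against HEK293T it was weak (r = -0.22). These are descriptions across genes of the same few libraries, and what produces them was not tested.

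Kits without a nuclease step gave no called member. In HEK293T, 0 of 38 members passed with Ribo-Zero Gold, which pulls rRNA out on beads (0.068% of all genes called). At an unadjusted edgeR p under 0.05 were 2 members (5.67% of genes), and DESeq2 called 0. RiboCop, also bead-based, gave 0 of 38 (0.0% of genes called), with 2 at an unadjusted edgeR p under 0.05 (4.42% of genes) and 0 in DESeq2. Among members averaging 50 counts or more, the ends of the range with Ribo-Zero Gold were NDUFB4 at log2 -0.41 and NDUFB6 at 0.32. With RiboCop they were NDUFS5 at -0.55 and NDUFB6 at 0.12. NDUFB4, a distal membrane arm subunit, measured 275 and 267 CPM undepleted, 222 and 187 CPM with Ribo-Zero Gold and 205 and 186 CPM with RiboCop, all 4 below undepleted. NDUFS5 went from 425 and 404 CPM to 326.5 and 258 CPM with RiboCop. Both genes were picked as ends of a range, so their lack of overlap with undepleted values cannot be read as a shift. The HEK293T libraries held only 120019 to 421521 counts, which limits what could be seen.

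In the deeper K562 kit table the spread was narrower. FastSelect, which blocks reverse transcription of rRNA, called 0 of 38 members (0.0198% of genes), with 5 at an unadjusted edgeR p under 0.05 (5.65% of genes). The bead-based riboPools called 0 of 38 (0.0794% of genes), with 2 at an unadjusted edgeR p under 0.05 (5.86% of genes). Its cold elution called 0 of 38 (0.258% of genes), with 1 at an unadjusted edgeR p under 0.05 (6.26% of genes). DESeq2 also called 0 in each. All 38 members lay within a log2 difference of 0.5 with each of the 3. Among all genes averaging 50 counts or more, as these 38 did, the share within 0.5 was 98.5% with FastSelect, 98.2% with riboPools and 98.95% with cold elution, so the members stood close to other genes of like depth. The widest shifts were NDUFB3, a distal membrane arm subunit, at log2 0.33 ± 0.11 SE with FastSelect (edgeR adjusted p = 0.810) and NDUFB8 at -0.23 ± 0.10 SE (edgeR adjusted p = 0.851). NDUFB3 measured 99.5 and 93.0 CPM undepleted and 112 to 124 CPM in all 6 libraries of these kits. NDUFB8 measured 173 and 158 CPM against 139 to 153 CPM. Both were picked as the widest of 38 members, so their lack of overlap with undepleted values cannot be read as a shift. NDUFAB1 measured 320 and 295 CPM undepleted and 263.5 and 287 CPM with riboPools (log2 -0.16), and NDUFV2 397 and 411 CPM undepleted and 373 and 357 CPM with cold elution (log2 -0.15). Of each of these 6 libraries against the undepleted mean, the SD of the members' log2 ratios was 0.10 to 0.15.

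NEBNext digests rRNA with a nuclease after hybridising it to DNA probes. In HEK293T 63.2% of members lay within a log2 difference of 0.5 with NEBNext, beside 68.6% of all genes tested. The same shares were 89.5% of members and 84.3% of genes with Ribo-Zero Gold, and 92.1% and 82.2% with RiboCop. At a minimum mean of 50 counts, which 12 members reached, the shares with NEBNext were 83.3% of members and 84.2% of genes. They were then 100% and 98.2% with Ribo-Zero Gold, and 91.7% and 98.98% with RiboCop. With NEBNext, 1 of 38 members tested passed (3.24% of genes called) and 10 had an unadjusted edgeR p under 0.05 (14.5% of genes). The called gene was NDUFA3, with 133 and 84.7 CPM undepleted, 65.5 and 68.8 CPM with Ribo-Zero Gold, 89.6 and 114 CPM with RiboCop, and 15.0 and 49.7 CPM with NEBNext. Both NEBNext libraries were lower than the other 6, at log2 -1.54 ± 0.48 SE (edgeR adjusted p = 0.0423). The counts were small, 16 and 13 undepleted against 2 and 10 with NEBNext. The call was lost without NEBNext 1 (edgeR adjusted p = 0.310), undepleted 1 (0.416) or undepleted 2 (0.0538), and in DESeq2 (0.492). Among members averaging 50 counts or more, NDUFB10 was among the lowest (342 and 280.2 CPM undepleted, 232.5 and 194 CPM with NEBNext, log2 -0.54). NDUFB6 was the highest (258 and 202 CPM, then 337.5 and 283.5 CPM, log2 0.44). Neither was called, and lack of overlap in genes picked as ends of the range cannot be read as a shift.

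In K562, 1 of 35 members tested passed with NEBNext (2.72% of genes called), and 7 had an unadjusted edgeR p under 0.05 (14.1% of genes). It was NDUFA4, with 300 and 235 CPM in the libraries titled undepleted and 539 and 511 CPM with NEBNext, at 20 to 34 and 20 to 60 nt. Both NEBNext libraries were higher, at 1.95-fold (log2 0.97 ± 0.23 SE, edgeR adjusted p = 0.00183). It was lost in DESeq2 (adjusted p = 0.999) and, with the size term dropped, without NEBNext at 20 to 34 nt (edgeR adjusted p = 0.711), undepleted at 20 to 34 nt (0.261) or undepleted at 20 to 60 nt (0.151). The undepleted libraries of the kit table, which carry no conflicting label, held 313.5 and 315 CPM of NDUFA4. In HEK293T, NEBNext gave 337.5 and 308 CPM against 225 and 293 CPM undepleted, above both but not called. Among better counted members, NDUFV2 (log2 0.56, edgeR adjusted p = 0.124) and NDUFAB1 (-0.68, edgeR adjusted p = 0.0985) came next.

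The NEBNext effect itself was compared between the 2 lines in 1 fit, where 0 of 38 members passed (0.764% of genes called). At an unadjusted edgeR p under 0.05 were 8 members (9.43% of genes), and DESeq2 called 0. NDUFA3 had the widest gap, lower by log2 2.65 ± 0.81 SE in HEK293T (edgeR adjusted p = 0.101), but K562 had 21 and 4 counts with NEBNext against 5 and 0 undepleted. NDUFA4 differed by -0.73 ± 0.32 SE (edgeR adjusted p = 0.404) and NDUFAB1 by 0.98 ± 0.32 SE (edgeR adjusted p = 0.146). The members' NEBNext changes went weakly with GC share (r = -0.25 over 37 in HEK293T, r = -0.33 over 34 in K562), against -0.13 and -0.08 over all genes. The 2 sequences above differ in runs of G or C (4 in NDUFA3, 0 in NDUFA4), but they were picked by their calls, each in another line. Whether such runs bear on the NEBNext changes was not tested.

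**Figure D4:**
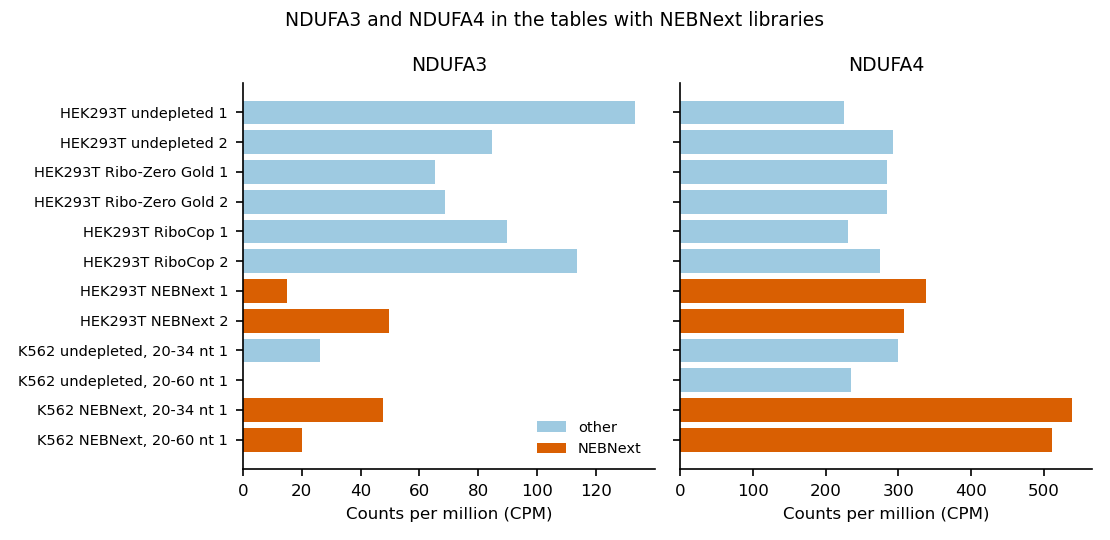
Level of NDUFA3 (left) and NDUFA4 (right) in CPM, from 0, in each library of the HEK293T and K562 size-selection tables, with NEBNext bars in orange. NDUFA3 is at 15.0 and 49.7 CPM with NEBNext in HEK293T, under the other 6 libraries of that line, and NDUFA4 is at 539 and 511 CPM with NEBNext in K562, above the libraries titled undepleted.

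Ribo-Zero Plus, the other nuclease kit, gave more calls than NEBNext, but its plain library held 1840190 counts against 133319 to 441249 with NEBNext. In the plain library 81.6% of members lay within a log2 difference of 0.5 (62.1% of genes). With NEBNext these shares were 63.2% (68.6% of genes) in HEK293T and 60% (70.9% of genes) in K562. At a minimum mean of 50 counts the plain library kept 81.6% of members (77.6% of genes) within 0.5. NEBNext then kept 83.3% of 12 members (84.2% of genes) in HEK293T and 62.5% of 8 members (81.8% of genes) in K562. With libraries of such unlike depth, these shares do not rank the 2 kits by the size of their shifts. The library without additions, with no replicate and assumed to vary like the others, called 9 of 38 members (6 higher, 3 lower), or 23.7% against a background of 20.6%. With total count scaling the split was 5 higher and 4 lower, and DESeq2 called 3. NDUFA1 rose most clearly, from 202 and 178 CPM undepleted to 295 CPM (log2 0.65 ± 0.10 SE, edgeR adjusted p = 5.46e-08), while the 6 libraries of other kits held 191 to 216 CPM. NDUFV3 went from 54.6 and 46.5 CPM to 81.5 CPM (log2 0.70 ± 0.18 SE, edgeR adjusted p = 0.00284), with 47.4 to 64.4 CPM in other kits. NDUFB2 went from 81.9 and 94.0 CPM to 126 CPM (log2 0.54, edgeR adjusted p = 0.00323). NDUFA13 went from 148 and 118 CPM to 175 CPM (log2 0.40) and NDUFB4 from 182 and 184 CPM to 225 CPM (log2 0.31), and NDUFB5 rose by log2 0.27.

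The fallen genes were NDUFS8, NDUFB8 and NDUFB7. NDUFS8 went from 164 and 176 CPM undepleted to 108 CPM (log2 -0.63 ± 0.13 SE, edgeR adjusted p = 0.000119), below the 147 to 171 CPM of the other kits. NDUFB8 went from 173 and 158 CPM to 115 CPM (log2 -0.51 ± 0.13 SE, edgeR adjusted p = 0.00147), and NDUFB7 from 106 and 103 CPM to 73.9 CPM (log2 -0.48 ± 0.16 SE, edgeR adjusted p = 0.0196). For each called gene the library stood outside the range of the 8 others in that fit. That follows largely from how the genes were called, so it adds no support. Without undepleted 2 the count fell to 5, as NDUFA13, NDUFB4, NDUFB5 and NDUFB7 no longer passed. Without undepleted 1 the calls of NDUFB2, NDUFB4, NDUFB5 and NDUFB7 were lost (6 were called).

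With oligos or formaldehyde added, the Ribo-Zero Plus libraries scattered much further. The SD of the members' log2 ratios to undepleted was 0.97 with oligos, 1.03 with formaldehyde and 0.93 with both, against 0.34 without additions. Between 8 and 9 members were past 2-fold in each, against 0 without additions. These libraries held 116742 to 184722 counts and a median of 18 to 25 counts per member, against 284 in the plain library. The lowest ratio was NDUFA10 with oligos (log2 -2.82), NDUFA11 with formaldehyde (-3.25) and NDUFB11 with both (-2.58), so the extreme gene differed each time. How far sparse counts account for the scatter was not tested.

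As the mean of the 4 Ribo-Zero Plus libraries, 8 of 38 members passed (3 higher, 5 lower), or 21.1% against a background of 14.9%, where the median of all genes was itself -0.43 and that of the members -0.19 (-0.30 and -0.07 with DESeq2 size factors). The 3 libraries with additions stood apart in other genes too: in the order oligos, formaldehyde, both, the K562 markers summed to 9187, 5979 and 3639 CPM against 11170 and 11540 CPM undepleted, and 5 of the 8 markers passed as lower in this mean. The mitochondrially encoded complex I genes summed to 8835, 13440 and 14960 CPM in the same order, against 6541 and 6669 CPM undepleted. The part of these shifts in the members' calls was not tested. NDUFB7 fell most: 106 and 103 CPM undepleted, and then, in the order plain, oligos, formaldehyde, both, 73.9, 37.9, 51.4 and 24.2 CPM (log2 -1.39 ± 0.29 SE, edgeR adjusted p = 0.0110). All 4 were below both undepleted libraries. NDUFB11, whose gene is on the X chromosome, measured 173.5 and 188 CPM undepleted, then 211, 97.4, 85.7 and 30.3 CPM (log2 -1.19 ± 0.23 SE, edgeR adjusted p = 0.00681), so the plain library went against the other 3. NDUFB2 rose, from 81.9 and 94.0 CPM to 126, 152, 77.1 and 291 CPM (log2 0.87 ± 0.22 SE, edgeR adjusted p = 0.0236), with the formaldehyde library below undepleted.

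NDUFC2, which shares its locus with the read-through gene NDUFC2-KCTD14, measured 137 and 129 CPM undepleted and 163, 200.3, 240 and 309 CPM in the 4 (log2 0.65 ± 0.16 SE, edgeR adjusted p = 0.02215). All 4 were above undepleted. NDUFA2 went from 104 and 115 CPM to 93.5, 32.5, 146 and 42.4 CPM (log2 -0.85), with the formaldehyde library above undepleted. NDUFS5 went from 383 and 419 CPM to 430, 406, 163 and 248 CPM (log2 -0.51), where both libraries with formaldehyde were low. NDUFA6 (log2 -0.74) also fell, and NDUFB9 (log2 0.29) rose. The DESeq2 test called 11 members (6 higher, 5 lower), or 28.95% against 14.2% of genes. With DESeq2 size factors in edgeR the calls were 3 higher and 2 lower, and with total counts 3 and 3. The number of members called ranged from 1 to 15 as single libraries were left out. It was 1, NDUFB11, without undepleted 1 or 2, where 1.72% and 1.57% of genes were called. It was 15 without any 1 of the 4 Ribo-Zero Plus libraries, where 29.9% to 36.5% of genes were called, and 5 without any 1 of the FastSelect, riboPools or cold elution libraries.

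**Figure D5:**
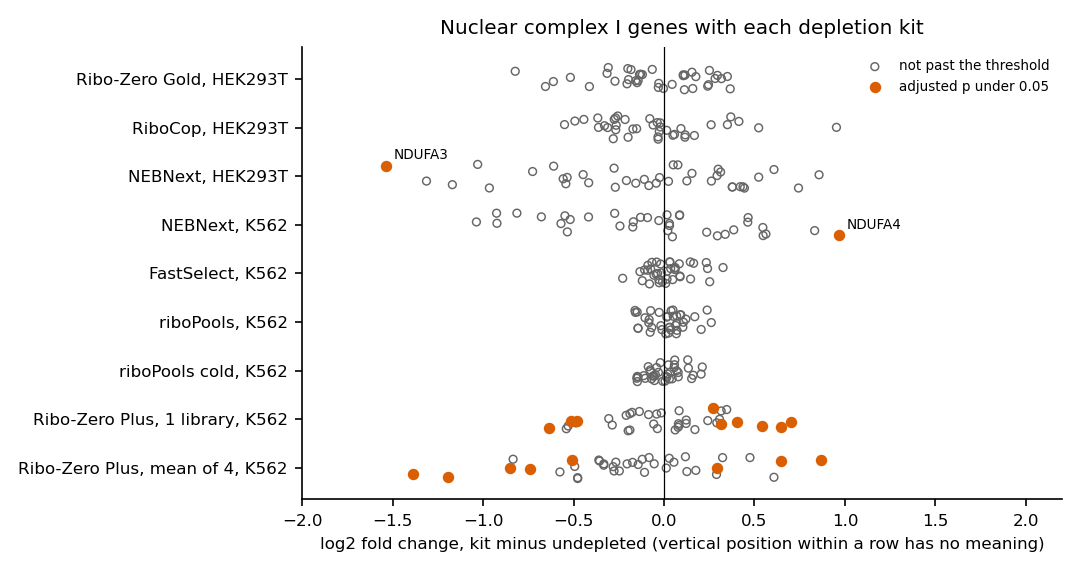
Log2 fold change of each nuclear complex I gene with each kit against undepleted libraries of the same table, with orange points for an edgeR adjusted p under 0.05. Bead and blocking kits keep all 38 members within 0.5 in K562, NEBNext has 1 call in each line (NDUFA3 at -1.54, NDUFA4 at 0.97), and Ribo-Zero Plus has 9 as 1 library and 8 as the mean of 4.

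In HEK293FT, custom oligo depletion could be compared only as 1 library of 5747772 counts against 1 undepleted library of 900763 counts, with no test. None of 38 members was past 1.5-fold, where 1.30% of the 5225 genes averaging 100 counts or more were. The ends were NDUFV2, 132 CPM against 164 CPM (ratio 0.80, counting interval 0.67 to 0.96), and NDUFV3, 57.8 CPM against 44.4 CPM (ratio 1.30, counting interval 0.94 to 1.81). The interval also left out 1 for NDUFB11 (ratio 0.85), lower with the oligos. It covers counting error only.

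The 7 mitochondrially encoded complex I genes summed to 883 and 945 CPM in undepleted HEK293T, 2516 CPM in HEK293FT and 6541 to 9390 CPM in undepleted K562, and all 7 passed as higher in K562 than in HEK293T (median log2 3.45). In HEK293T 5 of them were tested against undepleted: 2 rose with NEBNext, 1 fell with Ribo-Zero Gold (median log2 -0.74) and 0 passed with RiboCop. In K562 all 7 were tested: 2 rose and 1 fell with NEBNext, 0 passed with FastSelect, 2 rose with riboPools, 6 rose with cold elution (median log2 0.25) and all 7 rose with plain Ribo-Zero Plus (median log2 0.37). Of 19 assembly factors, 12 were tested between K562 and HEK293T, with 1 higher and 3 lower in K562 and a median log2 of -0.46. Plain Ribo-Zero Plus had 2 higher and 3 lower of 19 tested, and FastSelect and both riboPools elutions had 0 of 19.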

How the data were processed

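Ribosome footprints on coding sequences were counted in 26 libraries by the authors, who deposited 4 tables of raw counts on 19478 transcripts, whole numbers per the file values. CASAVA 1.8, STAR and GRCh38 (hg38) are named in the submitters' processing notes. The strand setting and the treatment of reads that map to several places are not given in the sources used here. Samples were grouped by their titles.

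CPM values used each column's total. Tests were edgeR 4.0.16 quasi-likelihood F-tests (R 4.3.3) with TMM scaling, a low count filter of 10 (filterByExpr) and Benjamini-Hochberg adjustment over all genes tested, called at 0.05. The comparison of lines used the 7 undepleted libraries, the HEK293T kits all 8 of their table, K562 NEBNext its 4 with a size term, and the other K562 kits 9, leaving out Ribo-Zero Plus with additions, which entered only the mean of 4. Alternatives were DESeq2 1.42.0, other scalings and filters, leaving out libraries and a replicate block. The fits were tested on simulated data. Densities used GENCODE 29 coding lengths, which matched 97.3% of transcripts, with pandas 2.3.3. Intervals of the summed shares are exact at 95% (scipy 1.17.1). The counting intervals of the HEK293FT ratios are at 95% by a normal approximation on the log ratio.

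Members and lists were chosen with earlier results of these data known. Values by library are given for members called (at most 8 a comparison, largest log2 change first), for the ends of each range among members with a mean of at least 50 counts, for the 3 highest and 3 lowest densities in each line, and for NDUFA4, NDUFA4L2, NDUFAB1 and the core subunits. Values of 1 member are not reported here by name. Values already given for another comparison are not repeated.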

Additional observations from a re-analysis of the deposited data

Results flagged for a closer look

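Among the 4 undepleted K562 libraries, 16 quantities of the members were tested for a library far from the others (a gap to the nearest that takes most of the group's range), and 3 had one. All 3 came from the 20 to 60 nt library, the smallest at 46858 counts. Its summed share of 0.602% lay below the others, its NDUFB9 level of 256 CPM lay below 386 to 410 CPM, and its NDUFC1 level of 85.4 CPM lay above 51.1 to 52.6 CPM. Where all values of a group vary equally, chance gives such a gap in about 1 of 20 groups, but these libraries differ in depth. In the 20 to 60 nt library NDUFB9 rests on 12 counts and NDUFC1 on 4. The part of depth in these values was not tested.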

How the results depend on the processing

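Counts of called members moved by over 1.5 times in these settings. Wherever DESeq2 is listed below, the share of all genes called fell as well, so a lower count there is not particular to the members. For K562 against HEK293T (15), DESeq2 called 8, 23 were called with RiboCop against riboPools libraries, and 9 were called with the size-selection table in place of the kit table, where NDUFS7 reversed to log2 -0.112. Leaving out libraries gave 7 to 16. For HEK293FT against HEK293T (2), DESeq2 called 0, total counts 1, and leaving out libraries 0 to 2. For K562 against HEK293FT (23), DESeq2 called 7, and leaving out libraries 20 to 22. NEBNext in HEK293T (1) gave 0 with DESeq2, without the filter, at a minimum mean of 50 counts and with both groups alone, and 0 to 1 with libraries left out. NEBNext in K562 (1) gave 0 with DESeq2, 2 at a minimum mean of 50 counts, and 0 to 3 with libraries left out and no size term. Plain Ribo-Zero Plus (9) gave 3 with DESeq2 and 5 to 9 with libraries left out. With all 12 kit libraries, where the kit term becomes the mean of 4, NDUFA13 and NDUFB4 reversed to log2 -0.083 and -0.36. That mean (8) gave 5 with DESeq2 size factors and 1 to 15 with libraries left out. The NEBNext difference between lines (0) gave 1 at a minimum mean of 50 counts (9.1% of the 11 members tested, 6.3% of genes). The cause of these moves was not tested. The size-table replacement, the K562 NEBNext omissions and the share over libraries of at least 500000 counts were chosen after seeing the data.

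Deviations of same-numbered libraries correlated at r from 0.038 to 0.107 in HEK293T (above 0 for all 6 group pairs) and -0.045 to 0.008 in the K562 kit table. The limit for treating the numbers as pairs, r above 0.1 in every pair, was not met. With that number as a replicate block, NEBNext in HEK293T called 1 member (2.6% of members, 3.5% of genes). Ribo-Zero Gold, RiboCop, FastSelect, riboPools and cold elution called 0 each (at most 0.28% of genes). K562 against HEK293T called 18 (47.4% of members, 38.6% of genes), from a fit of only the 4 undepleted HEK293T and kit-table libraries.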
